A study of Mus musculus with 6 samples.

Results

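The TCF/LEF factors and the proteins that work with them form the nuclear end of the Wnt pathway. From the 53927 gene symbols of the count tables, 10 of their genes were chosen by symbol, and 10 of 10 were found and passed the filter on low counts. They are the DNA-binding factors Lef1, Tcf7, Tcf7l1 and Tcf7l2, the corepressors Tle1, Tle3 and Tle4, and the coactivators Bcl9, Bcl9l and Pygo2. TCF/LEF proteins bind DNA through an HMG box and hold target genes silent with TLE corepressors until beta-catenin reaches the nucleus, where it displaces the corepressors and brings in BCL9 and Pygopus. The kinase GSK3 marks beta-catenin for destruction, so GSK3 inhibitors stabilise it. In mouse embryonic stem cells (ESCs) Tcf7l1 is known mainly as a repressor of the naive pluripotency genes, and relief of that repression is one known effect of GSK3 inhibition.

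RNA was compared between ESCs in BRD0705/PD03 and in 2i, with 3 libraries in each group and libraries made from total RNA after ribosomal RNA depletion. Both media contained 1 µM PD0325901, which blocks the kinase MEK, in N2B27 base. The GSK3 inhibitor differed: 2i held 3 µM CHIR-99021, which acts on GSK3 alpha and beta alike, and BRD0705/PD03 held 8 µM BRD0705, which prefers GSK3 alpha. All 6 samples are labelled wild-type ESCs of the line E14, whereas the growth protocol speaks of B6D2F1 ESCs, derived anew on feeders for either medium. Which cells were used is therefore not certain. Nothing in the labels ties the libraries to separate cultures, so p-values measure only how these libraries vary, and that variation may be technical.

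Libraries held 16968959 to 51180228 counts. The ESC markers Pou5f1 (687 ± 6.29 against 765 ± 54.9 CPM) and Sox2 (289 ± 7.64 against 300.4 ± 14.8 CPM) were abundant in both groups (mean ± SD, n = 3, BRD0705/PD03 given before 2i here and below). CPM are counts scaled to a common library size. Of 9 ESC markers listed, Pou5f1 and Sox2 included, 4 were higher and 4 lower in BRD0705/PD03 (edgeR adjusted p under 0.05). By that threshold 30.1% of all genes tested were higher and 31.4% lower. Log2 fold changes of the 9 markers ran from -1.09 to 1.41 (median -0.05). The groups also differed in ways the media do not define. Y-linked Ddx3y stood at 122 ± 7.06 against 3.03 ± 0.26 CPM and Eif2s3y at 108 ± 3.0 against 1.16 ± 0.297 CPM, and the 717 X-linked genes tested had a median log2 fold change of -0.78. Beside the same 30.1% and 31.4% of all genes, 13 of 15 fibroblast markers were higher in BRD0705/PD03 and 0 lower, with a median of 0.93. Their summed level was 899 to 1320 CPM against 531 to 548 CPM, and none of the 15 was at 0 in every library. Y-linked and X-linked RNA thus differed between the groups along with the medium. Effects of line or sex chromosomes on other genes cannot be told apart from effects of the medium. In bulk RNA, fewer cells of a type and less RNA per cell cannot be told apart either. None of the 10 genes lies on X or Y.

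Of the 10 genes, 5 were higher and 2 lower in BRD0705/PD03 and 3 did not pass the test (edgeR quasi-likelihood test, Benjamini-Hochberg adjusted p under 0.05 over 20422 genes). The share of all genes called was 61.4%, with 30.1% higher and 31.4% lower, so 7 of 10 is near the background. The median log2 fold change was 0.21, where that of all genes tested was 0.00. Libraries of the groups did not overlap for 7 of the 10 genes, as for 66% of all genes. A call of at least 2-fold was made for 2 of them, Lef1 and Bcl9, and for 21.2% of all genes. The sizes of change ran from 4.41 for Lef1 to -0.46 for Bcl9l. Of all genes tested, 98.4% changed less than Lef1 in either direction, 83.4% less than Bcl9, 57.1% less than Tle4 and 54.4% less than Bcl9l. The figure was 39.5% for Tcf7l1, 29.2% for Pygo2, 28.9% for Tcf7 and 0.686% for Tle1.

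Before the values, the sequence in front of Lef1, the gene with the largest change of the 10, is shown together with the only matches to the TCF/LEF recognition word near the start sites of these genes. TCF/LEF proteins recognise a core of CTTTG followed by A or T bases, and full words were searched on both strands. These were CTTTGAA with its variant form CTTTGAT, and the words with T after the core, namely CTTTGTA along with the form CTTTGTT. Windows ran from 250 bases before to 50 after each RefSeq start site of GRCm38.p6, the build also called mm10. The RefSeq table held 9 of the 10 genes (not Bcl9l), with 17 windows. The first sequence covers the 250 bases before the first Lef1 start site, chr3:131110047-131110296 on the plus strand, which lies outside the Lef1 gene as GENCODE M21 annotates it. Capitals there mark the short core, CTTTG. The other sequences hold a full word, in capitals, in introns of Lef1 (chr3:131156136-131156164, plus strand, with the word read on the other strand) and of Tcf7l2 (chr19:55895296-55895324, plus strand), each near an internal start site.
Lef1 upstream: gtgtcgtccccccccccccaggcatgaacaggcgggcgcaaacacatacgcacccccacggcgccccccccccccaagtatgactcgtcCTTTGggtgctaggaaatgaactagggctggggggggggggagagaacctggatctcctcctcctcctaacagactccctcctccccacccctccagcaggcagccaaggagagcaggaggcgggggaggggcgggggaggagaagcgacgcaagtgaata
Lef1 internal site: caacctcagaaTACAAAGtaggattgcat
Tcf7l2 internal site: aaaatatcaggCTTTGTTcttttgattga
The word began 147 bases before the internal Lef1 start site and 14 bases before that of Tcf7l2. The 250 bases upstream of Lef1 held 1 core and 0 full words. Of 17 windows of these genes 2 held a full word (11.8%), against 16.9% of all 32851 windows. By gene it was 2 of 9 (22.2%), against 18.9% of all 27025 genes. The core, within a full word or not, was in 8 of 17 windows (47.1%) against 53.9%. A match of letters is a description of the sequence and was not tested for binding.

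Lef1 separated the media most widely among the DNA-binding factors. Its protein can carry beta-catenin to DNA, and the gene is itself a widely used target of that complex. Lef1 (chromosome 3, 131110471 to 131224356, plus strand) stood at 56.5, 55.3 and 52.2 CPM in BRD0705/PD03 and at 2.91, 2.45 and 2.53 CPM in 2i. Every BRD0705/PD03 library was far above every 2i library, and the spread within each group was small beside the gap. The log2 fold change was 4.41 ± 0.08 (standard error, n = 3 per group, edgeR adjusted p = 8.5e-19), a 21.2-fold difference, and 156 of 20422 genes tested had a higher one. The counts behind it ran from 49 in a 2i library to 2129. The antisense gene model Gm43352 shares 13.7% of the exon bases of Lef1 and has no entry under that symbol in the deposited counts. Whether counting used strand is not stated, so reads of Lef1 and of this antisense model cannot be told apart.

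**Figure D1:**
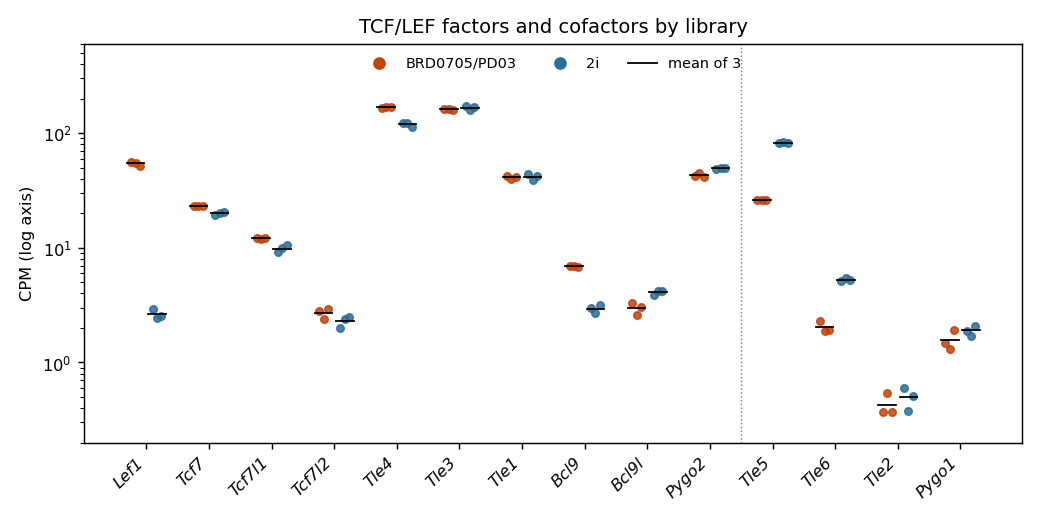
CPM (log axis) of the 10 genes, and right of the dotted line 4 further family genes, in each of the 3 libraries of BRD0705/PD03 and of 2i; black lines are group means. Lef1 (54.7 against 2.63 CPM) and Bcl9 (6.90 against 2.94 CPM) stand highest above their 2i values, and Tle5 (26.1 against 82.7 CPM) falls furthest below.

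The other DNA-binding factors differed little. Tcf7, which like Lef1 mostly activates targets with beta-catenin, stood at 23.3, 23.1 and 23.1 CPM in BRD0705/PD03 and at 19.4, 20.3 and 20.7 CPM in 2i (log2 fold change 0.20 ± 0.06, edgeR adjusted p = 0.00749). Its groups did not overlap, though the fitted difference was only 1.15-fold, and DESeq2 did not call it (adjusted p = 0.0575). Tcf7l1, the repressor, stood at 12.2, 11.9 and 12.1 CPM against 9.14, 9.88 and 10.5 CPM, again without overlap (0.29 ± 0.08, adjusted p = 0.00488). Tcf7l2, which acts as activator or repressor by context, stood at 2.80, 2.40 and 2.92 CPM against 2.02, 2.37 and 2.49 CPM. Its groups overlapped and it did not pass the test (0.23 ± 0.16, adjusted p = 0.239), with 34 to 119 counts per library. The antisense model Gm15401 shares 4.56% of the exon bases of Tcf7l1. Tcf7 lies on chromosome 11 (52252371 to 52283014, minus strand), Tcf7l1 on chromosome 6 (72626378 to 72789254, minus strand) and Tcf7l2 on chromosome 19 (55741820 to 55933654, plus strand).

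Levels of different genes were compared per length, as CPM per kilobase of the union of a gene's exons. The 4 factors together stood at 18.7, 18.4 and 18.1 CPM per kb in BRD0705/PD03 and at 10.3, 10.8 and 11.1 in 2i, a ratio of 1.72. Lef1 made up 34.3%, 34.2% and 32.7% of that sum in BRD0705/PD03 and 3.22%, 2.59% and 2.58% in 2i. Tcf7 held 47.9 ± 0.488% against 71.4 ± 0.531%, Tcf7l1 16.7 ± 0.314% against 23.3 ± 0.683%, and Tcf7l2 1.67 ± 0.176% against 2.43 ± 0.168%. The share of Tcf7l1 was thus lower in BRD0705/PD03 although its CPM was higher there, as the sum includes Lef1. No library of either group fell within the range of the other for the sum or for any share. The exact two-sided permutation test gave p = 0.1 for each, the smallest that 3 against 3 libraries allow, so no p under 0.05 was possible. Such sums and shares numbered 7 with those of the cofactors, each at exact permutation p = 0.1, and they are not independent.

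**Figure D2:**
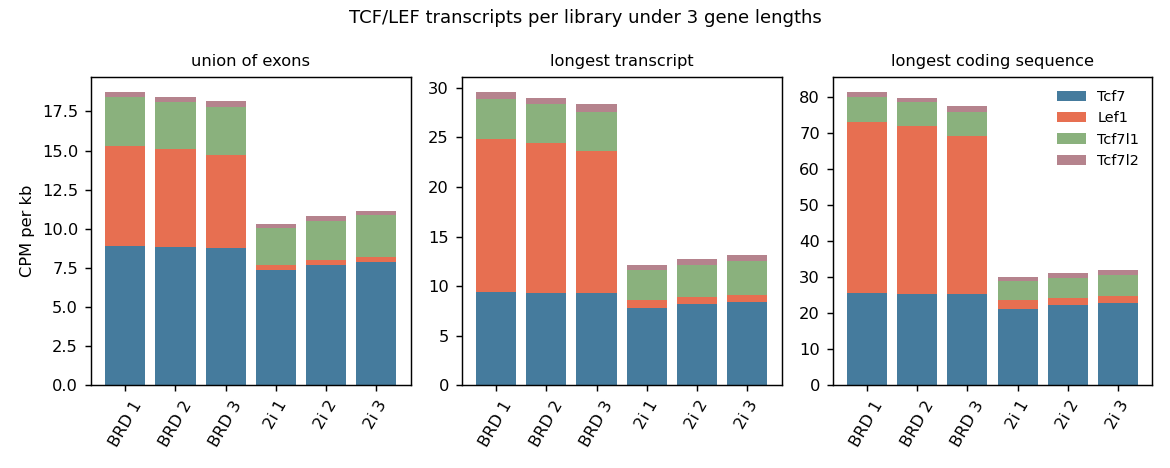
CPM per kb of Tcf7, Lef1, Tcf7l1 and Tcf7l2, stacked, in each library (BRD, BRD0705/PD03), with 1 panel for each definition of gene length. The Lef1 segment is the part that differs most, and it is thinner than that of Tcf7 in BRD0705/PD03 with the union of exons (33.7% against 47.9%) but thicker with the longest transcript (51.5% against 32.3%).

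Which factor led in BRD0705/PD03 depended on the length used. The exons of Lef1 join to 8788 bases, while its longest annotated transcript has 3656. By the longest transcript, Lef1 stood at 15.0 ± 0.604 and Tcf7 at 9.38 ± 0.0567 CPM per kb in BRD0705/PD03, and by the union of exons at 6.22 ± 0.251 and 8.83 ± 0.0534. With the longest transcript the ratio of the summed factors between media was 2.28, and with the longest coding sequence 2.56. In 2i Tcf7 led under each of the 3 lengths, with 64.1% to 71.4% of the sum.

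Ratios between factors do not depend on that choice when compared between media. The log2 ratio of Lef1 to Tcf7l1, an activator gene to a repressor gene, per length was 1.05, 1.06 and 0.94 in BRD0705/PD03 and -2.82, -3.17 and -3.22 in 2i. It differed by 4.08, and its sign changed between the media when levels were taken over the union of exons. The ratio of Tcf7 to Tcf7l1 moved by only -0.09 (1.52 ± 0.02 against 1.61 ± 0.05), and those of Tcf7 and Tcf7l1 to Tcf7l2 overlapped between groups (exact permutation p = 0.7 for both). Within the families 10 pairs were compared, and 7 of them did not overlap, each at exact permutation p = 0.1 and adjusted p = 0.143. Pairs that share a gene, such as Lef1 or Tle4, are not independent. Taken singly, 66% of all genes tested did not overlap between the groups.

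**Figure D3:**
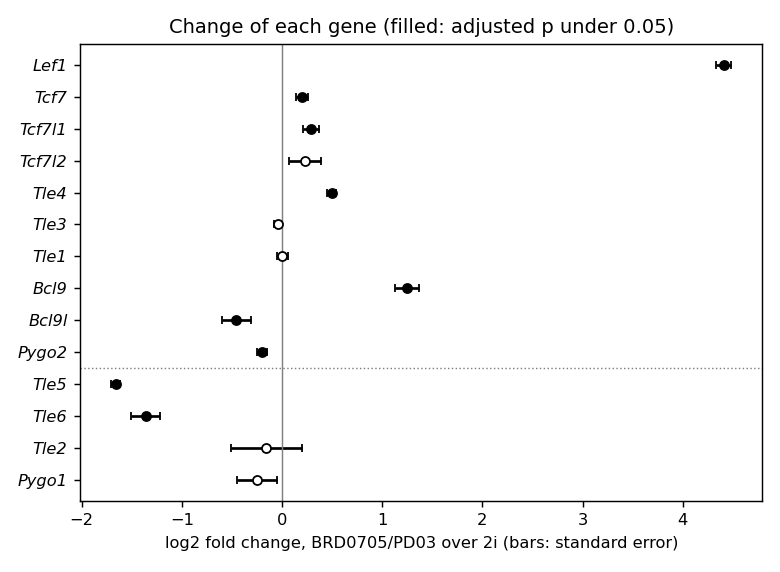
Log2 fold change of BRD0705/PD03 over 2i (x axis) with its standard error for each gene, filled where the edgeR adjusted p was under 0.05. Lef1 stands alone at 4.41, Bcl9 follows at 1.24, and the other 8 genes above the dotted line lie between -0.46 and 0.49.

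Among the corepressors 1 of 3 rose. TLE proteins have no DNA-binding domain of their own and are brought to genes by TCF/LEF and other factors. Tle4 (chromosome 19, 14448150 to 14598051, minus strand) stood at 165.8, 169.4 and 169.8 CPM in BRD0705/PD03 and at 122.5, 122.9 and 113.1 CPM in 2i. The groups were well separated, at 0.49 ± 0.04 (edgeR adjusted p = 6.7e-09) or 1.41-fold. Tle3 (161.8 ± 2.58 against 166.8 ± 5.83 CPM) and Tle1 (41.6 ± 1.23 against 41.6 ± 2.25 CPM) overlapped between groups and did not pass the test, with log2 fold changes of -0.04 ± 0.04 and 0.00 ± 0.05 (adjusted p = 0.38 and 0.948). The sign of Tle3 turned with upper-quartile factors (0.02) and with a covariate for fibroblast RNA (0.04), also without a call. Over the union of exons, Tle4 was the most abundant of the 10 genes in both media, at 29.5 ± 0.382 against 21 ± 0.974 CPM per kb. By the longest coding sequence Tle3 stood above it in 2i, at 71 ± 2.48 against 51.5 ± 2.39 CPM per kb. The 3 corepressors summed to 47.9, 48.4 and 48.2 CPM per kb against 41.2, 39.8 and 39.1, a ratio of 1.2 without overlap (exact permutation p = 0.1). The log2 ratio of Tle3 to Tle4 was -1.09 ± 0.04 against -0.55 ± 0.10, and that of Tle1 to Tle3 overlapped. The antisense model Gm11250 shares 2.84% of the exon bases of Tle1. Tle3 lies on chromosome 9 (61372366 to 61418497, plus strand) and Tle1 on chromosome 4 (72117142 to 72200919, minus strand).

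The rest of the TLE family went down or did not pass the test. Tle5, also called Aes, encodes a short family member that lacks the WD repeats of the long ones and can oppose them. It stood at 26.1, 26.1 and 26.3 CPM in BRD0705/PD03 and at 82.7, 84.1 and 81.3 CPM in 2i. The change of -1.66 ± 0.05 (edgeR adjusted p = 4.5e-16) is a 3.16-fold lower level, the largest fall among the 14 family genes, and within-group values lay close together. Tle6, a divergent member best known from the oocyte, stood at 2.05 ± 0.231 against 5.25 ± 0.164 CPM (-1.36 ± 0.14). Tle2 was near the limit of detection with 10 to 19 counts per library (0.427 ± 0.102 against 0.495 ± 0.108 CPM, adjusted p = 0.721).

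The BCL9 paralogs moved in opposite directions. BCL9 and BCL9L each bind beta-catenin and tie it to Pygopus, a reader of methylated histone H3. Bcl9 (chromosome 3, 97203662 to 97297917, minus strand) stood at 6.96, 6.94 and 6.79 CPM in BRD0705/PD03 and at 2.97, 2.69 and 3.16 CPM in 2i. All 3 BRD0705/PD03 libraries were at least at 6.79 CPM and no 2i library passed 3.16 CPM (1.24 ± 0.12, edgeR adjusted p = 4.3e-08, 2.37-fold). Bcl9l (chromosome 9, 44482825 to 44511896, plus strand) stood at 3.33, 2.62 and 3.04 CPM against 3.86, 4.23 and 4.22 CPM, lower without overlap (-0.46 ± 0.14, adjusted p = 0.00937). The models Gm47205 and Cxcr5, on the other strand, share 8.28% and 1.38% of its exon bases. The call of Bcl9l rested on 65 to 212 counts per library and was lost with DESeq2 (adjusted p = 0.0865), after thinning every library to the smallest total (-0.29, adjusted p = 0.148) and without 2i replicate 2 (adjusted p = 0.051). The log2 ratio of Bcl9 to Bcl9l per length was 0.99, 1.33 and 1.08 against -0.46, -0.73 and -0.50, so the more abundant paralog differed between the media in all 6 libraries, also by the other lengths.

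Pygo2, the Pygopus gene expressed in most tissues, was per length the most abundant of the 3 coactivators and fell slightly. It stood at 42.6, 45 and 41.8 CPM in BRD0705/PD03 and at 49.1, 50.1 and 49.3 CPM in 2i (-0.20 ± 0.05, edgeR adjusted p = 0.00129), with the groups apart. Its paralog Pygo1 overlapped between groups at 1.57 ± 0.312 against 1.90 ± 0.188 CPM (adjusted p = 0.304). Bcl9, Bcl9l and Pygo2 together stood at 13.1 ± 0.423 against 14.5 ± 0.142 CPM per kb, a sum led by Pygo2 at 11.9 ± 0.451 against 13.6 ± 0.144. Pygo2 lies on chromosome 3 (89430214 to 89435128, plus strand).

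In order of level per length in BRD0705/PD03, Tle4 was followed by Tle3 (13.9), Pygo2 (11.9), Tcf7 (8.83), Lef1 (6.22), Tle1 (4.77), Tcf7l1 (3.08), Bcl9 (0.817), Bcl9l (0.374) and Tcf7l2 (0.308 CPM per kb), over the union of exons. Libraries of Bcl9l and Tcf7l2 overlapped, and no other neighbours in that order did. In 2i the order was Tle4, Tle3 (14.3), Pygo2 (13.6), Tcf7 (7.67), Tle1 (4.78), Tcf7l1 (2.51), Bcl9l (0.513), Bcl9 (0.348), Lef1 (0.299) and Tcf7l2 (0.261). There Tle3 overlapped with Pygo2, Bcl9 with Lef1, and Lef1 with Tcf7l2. Over the union of exons Lef1 thus stood above 5 of the other genes in BRD0705/PD03 and among the lowest in 2i. By the longest transcript Lef1 ranked higher in BRD0705/PD03, at 15 CPM per kb against 13.5 for Pygo2 and 9.38 for Tcf7.

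Fibroblast markers moved with the medium, and their level beside the genes of largest change was as follows. The mean log2 CPM of Col1a1, Col1a2, Col3a1, Dcn and Lum was 5.89, 6.15 and 6.50 in BRD0705/PD03 and 5.16, 5.23 and 5.19 in 2i. Col1a1 stood at 142 ± 29.6 against 77.7 ± 1.96 CPM and Dcn at 55.7 ± 8.82 against 29.4 ± 2.55 CPM. Within BRD0705/PD03, Lef1 was highest (56.5 CPM) in the library with the lowest fibroblast level and lowest (52.2 CPM) in that with the highest. Bcl9 had the same order (6.96 to 6.79 CPM), and Tle4 (165.8 to 169.8 CPM) and Tle5 (26.1 to 26.3 CPM) had the reverse. These orders were not tested. With the fibroblast level as a covariate, Lef1 (4.60 ± 0.17), Bcl9 (1.33 ± 0.32), Tle4 (0.44 ± 0.13) and Tle5 (-1.69 ± 0.15) passed the edgeR test, while Tcf7 (adjusted p = 0.422), Tcf7l1 (0.433), Bcl9l (0.651), Pygo2 (0.525) and Tle6 (0.108) did not. The covariate is nearly a split by medium, and it raised the standard error of Tcf7 from 0.06 to 0.18 while its change went from 0.20 to 0.22. The 8 primitive endoderm markers summed to 5.24 to 5.89 against 4.77 to 5.22 CPM, with 2 higher and 1 lower of 5 tested. The 8 trophoblast markers summed to 51.8 to 53.7 against 43.1 to 49.4 CPM, most of it from Tfap2c, with 3 higher and 1 lower of 6 tested. Both counts are without the covariate, where 30.1% of all genes were higher and 31.4% lower. Afp, Ttr and Hand1 were at or near 0, and the part of these cell types in the results was not tested.

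**Figure D4:**
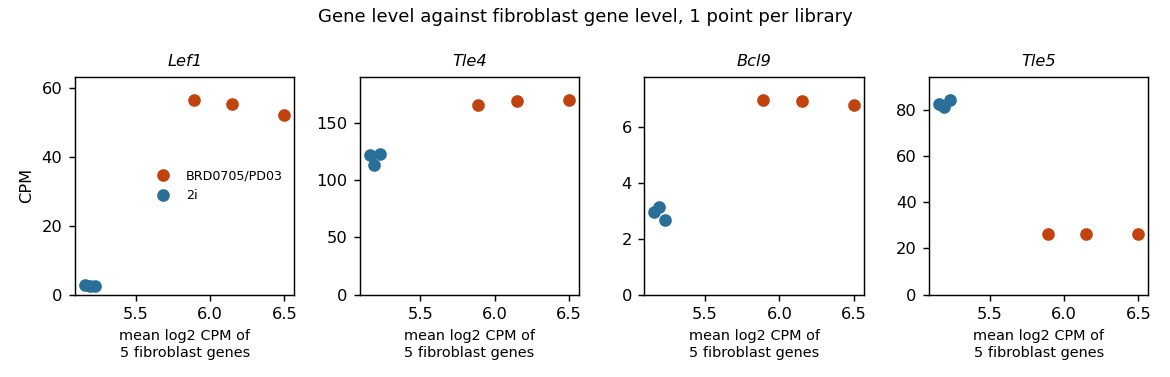
CPM of Lef1, Tle4, Bcl9 and Tle5 (y axes, from 0) against the mean log2 CPM of 5 fibroblast genes (x axis), 1 point per library. Within BRD0705/PD03 the fibroblast level spans 5.89 to 6.50 while Lef1 stays between 52.2 and 56.5 CPM and Tle5 between 26.1 and 26.3 CPM.

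Other nuclear partners of beta-catenin and TCF/LEF changed mostly by small amounts. Of 26 listed and tested, 14 were higher and 7 lower (median 0.10), where 30.1% of all genes were higher and 31.4% lower. With the fibroblast covariate 3 were called higher and 5 lower (median 0.06), beside 11.5% and 14.5% of all genes. Against a fold of 1.5, 2 were called higher and 3 lower (median 0.10), beside 12.2% and 12.7% of all genes. Hbp1, an HMG-box repressor of TCF targets, rose from 50.7 ± 0.87 to 94.6 ± 1.99 CPM (0.90 ± 0.04). Xiap, a ubiquitin ligase that acts on TLE proteins, fell from 167.8 ± 4.74 to 82.7 ± 3.19 CPM, and Tbl1x (-0.67 ± 0.04) and the Mediator gene Med12 (-0.79 ± 0.05) fell as well. Those 3 are X-linked, and the X-linked genes as a whole had a median of -0.78. Of the 23 other partners 14 were higher and 4 lower. Tnik, a kinase that acts on TCF4 (the protein of Tcf7l2), named after its value was seen, had the highest change at 9.08 ± 0.611 against 3.18 ± 0.238 CPM (1.5 ± 0.11). Ctnnb1, the gene of beta-catenin, was at 922 ± 24.1 against 862 ± 11 CPM (0.10 ± 0.04, edgeR adjusted p = 0.0401), a call lost with the replicate block (adjusted p = 0.0563), with the fibroblast covariate (0.832), without the X and Y genes (0.0654) and without BRD0705/PD03 replicate 2 (0.151) or 3 (0.101).

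Genes commonly used as targets of TCF/LEF with beta-catenin moved both ways. Of 23 listed, 17 passed the filter, with 9 higher and 4 lower (median 0.25), beside the same 30.1% and 31.4% of all genes. With the fibroblast covariate 4 were higher and 5 lower (median 0.39), beside 11.5% and 14.5% of all genes. Ccnd1, a cyclin gene, stood at 300.4 ± 12.4 against 173 ± 6.88 CPM (0.79 ± 0.04) and Ndrg1 at 57.4 ± 5.21 against 25.6 ± 0.426 CPM (1.17 ± 0.06). Apcdd1, which encodes a Wnt antagonist at the membrane, was at 7.12 ± 0.656 against 23.4 ± 0.969 CPM (-1.71 ± 0.08) and Notum, a secreted enzyme that inactivates Wnt ligands, at 29.8 ± 1.5 against 59.8 ± 5.53 CPM (-1.0 ± 0.06). Sp8, named after its value was seen, stood at 3.11, 4.65 and 4.12 CPM against 0.653, 0.618 and 0.631 CPM. Axin2, also named after its value was seen, overlapped between groups at 17.9 ± 3.04 against 20.5 ± 0.954 CPM. It did not pass the test (-0.187 ± 0.115, edgeR adjusted p = 0.191). The extremes of the list, at -3.34 and 3.67, belonged to genes below 2 CPM in all 6 libraries and rest on few counts.

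Naive genes for which Tcf7l1 is a known repressor were mostly lower in BRD0705/PD03. Of 8 listed, 7 were lower and 1 higher (median -0.90), where 31.4% of all genes were lower and 61.4% called in either direction. Libraries of the groups did not overlap for 7 of them, as for 66% of all genes, the exception being Nr0b1, named after its value was seen. Nr0b1 was among the lower genes (-0.16) and is X-linked, and X-linked genes as a whole had a median of -0.78. Of the 7 other naive genes 6 were lower and 1 higher. Tcl1, an AKT coactivator gene, stood at 21.2 ± 1.02 against 118 ± 4.36 CPM (-2.48 ± 0.05) and Tbx3, a naive transcription factor, at 33.4 ± 2.05 against 173 ± 6.45 CPM (-2.37 ± 0.05). Nanog (-0.95 ± 0.05) and Esrrb (-0.64 ± 0.04), both core factors of the naive network, fell less. Klf2, named after its value was seen, was the gene that rose, at 125 ± 5.99 against 109 ± 2.18 CPM (0.20 ± 0.04). The size of the Tcf7l1 difference, 1.22-fold, was below that of Tcl1, Tbx3, Nanog and Esrrb, and whether they are linked was not tested.

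**Figure D5:**
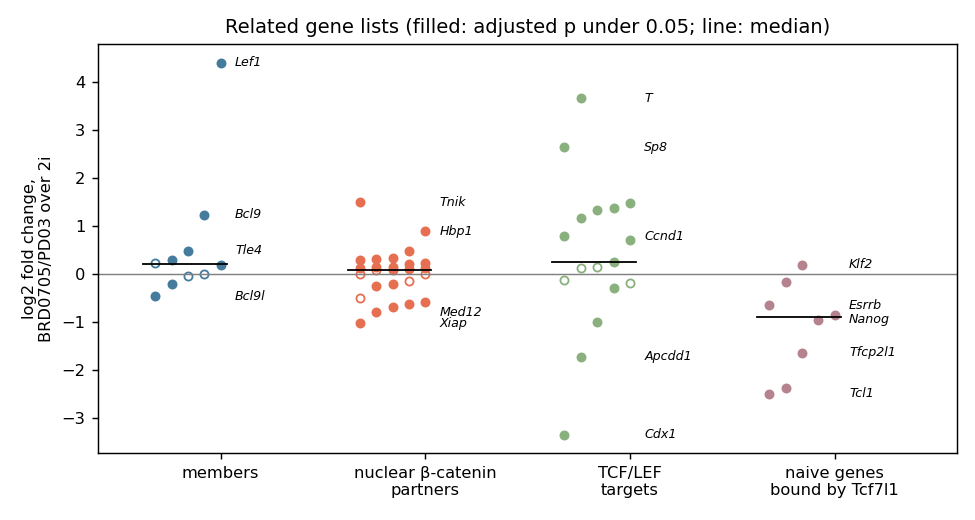
Log2 fold change of BRD0705/PD03 over 2i (y axis) for the tested genes of 4 lists, filled where the edgeR adjusted p was under 0.05, with the list median as a line and some genes labelled after their values were seen. The 10 members (median 0.21), 26 partners (0.10) and 17 targets (0.25) spread to both sides of 0, and 7 of 8 naive genes lie below it (median -0.90).

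The genes whose pattern over the 6 libraries was nearest to each factor were found among 10267 to 10268 genes that averaged 5 CPM or more, by the root mean square distance of centred log2 CPM. Nearest to Lef1 were Tpm3-rs7 (0.0827), a tropomyosin-related copy whose reads may be shared with other copies, Ipp (0.10) and Fggy (0.106). These stood at 121 ± 7.81 against 6.28 ± 0.784 CPM, 160.4 ± 2.91 against 7.19 ± 0.572 CPM and 14.4 ± 0.402 against 0.747 ± 0.0803 CPM. Nearest to Tcf7 were Dnajc13 (0.0116), Mapre2 (0.0148) and Kmt2a (0.0156). Nearest to Tcf7l1 were Islr2 (0.0284), Cdc73 (0.0306) and Zmat3 (0.0311), of which Cdc73 encodes a PAF1 complex subunit that binds beta-catenin. Nearest to Tcf7l2 were Rasgrp4 (0.0437), Zfp418 (0.0545) and H2-Q6 (0.0567). With 6 libraries in 2 groups, a small distance can come from a like change between the groups alone.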

How the data were processed

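The deposited tables hold whole numbers per gene symbol for each library. Per the submitters' processing notes the tools included Salmon, of unstated version, with mm10 as the build. The deposited values were therefore treated as estimated counts, whole and unscaled. No annotation, strand setting or summing rule is given in the sources used here.

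Testing used edgeR 4.0.16 under R 4.3.3 (filterByExpr, TMM scaling, robust quasi-likelihood test, group as the only term), with Benjamini-Hochberg adjustment over 20422 genes and a threshold of 0.05. Standard errors are the log2 fold change over the square root of F. CPM use effective library sizes. Lengths, positions and exon overlaps came from GENCODE M21 on GRCm38, the same build as mm10, and 51952 of 53927 symbols matched 1 gene. Sums, shares and ratios were tested by exact two-sided permutation over libraries (scipy 1.17.1). The test was checked on simulated data. No pair of replicates matched within sampling noise (chi-square per degree of freedom 2.77 to 9.84 over genes with at least 20 counts).

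The members and lists were chosen with earlier results of these data known. Named were the 10 members, 4 other family genes and Ctnnb1, up to 4 called genes of smallest p in each of 3 related lists, the 3 nearest patterns per factor, and 6 genes that check the cells. Alternatives were DESeq2 1.42.0, other scaling, filters and lengths, testing against a 1.5-fold change, a block for replicate number, omission of X and Y genes, a fibroblast covariate, thinning and leaving out each library.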

Additional observations from a re-analysis of the deposited data

How the results depend on the processing

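Of the 10 members 7 were called. Against a fold of 1.5 the count was 2 (Lef1 and Bcl9), and with the fibroblast covariate 3 (Lef1, Bcl9 and Tle4). The share of all genes called fell too, from 61.4% to 24.9% and 26%. Of 26 nuclear partners 21 were called, 5 against a fold of 1.5 and 8 with the covariate. Of the 8 naive genes 8 were called, and 5 against a fold of 1.5. Other alternatives kept these counts and that of the targets within 1.5 times, with 5 members by DESeq2 (not Tcf7 or Bcl9l) and 6 to 7 when a library was left out. With the replicate number as a block 7 members were called, and of the named genes Ctnnb1, H2-Q6 and Col1a1 lost their call. Deviations of same-numbered libraries correlated at -0.0409, 0.0453 and -0.0844, and those of differently numbered libraries at -0.145 to 0.179. With 3 libraries per group these values cannot show whether the numbers pair the libraries. Col1a1 turned to -0.11 with the covariate that it is part of. Sums and shares kept their direction under the 3 lengths, with library totals and without each library. The coding length was taken from GENCODE and added after the data were seen, and a length from a protein table was not run. Depth limits Tle2 (10 to 19 counts per library), Tcf7l2 (34 to 119) and Bcl9l (65 to 212).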
